A study of Mus musculus with 10 samples.

Results

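The 10 genes described here encode thioredoxin-domain proteins of the endoplasmic reticulum (ER): the transmembrane thioredoxins Tmx1, Tmx2, Tmx3 and Tmx4, the protein disulfide isomerases P4hb, Pdia3 and Pdia5, and their relatives Txndc5, Txndc12 and Erp44. They are 10 of the 17864 genes in the count table, were listed by name, and all 10 had enough reads to be tested. Tmx4 was chosen because it had the lowest p of all genes in the comparison of these same tumors, so its difference is given as a description, and the other 9 were listed as its relatives. The RNA of entire 4T1 tumors was measured, 4T1 being a carcinoma line of the mouse mammary gland. Of these tumors, 5 came from cells that carry Cas9 and a control guide RNA (sgCon) and 5 from cells that carry Cas9 and a guide RNA against Wwtr1, the gene of the transcriptional coactivator TAZ (sgTaz). Cas9 and the guide RNA were thus present in both groups. Female mice of 6 to 8 weeks received the cells in a mammary fat pad. The methods name SCID and BALB/c mice as hosts but do not say which of them carried the sequenced tumors, nor whether each cell line was a pool or a single clone.

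Proteins that enter the ER fold while disulfide bonds form between their cysteines. Protein disulfide isomerases make, break and reshuffle these bonds through a thioredoxin fold whose active site is usually a pair of cysteines separated by a pair of other residues. Most of them are soluble in the ER lumen and carry a retrieval signal at their end, whereas the TMX proteins are held in the membrane of the ER. TMX4 acts mainly as a reductase, and ERp44 is a chaperone that retains unfinished proteins through a single cysteine.

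The active sites are shown because they are what these proteins share and where they differ. Each line gives coding sequence of GENCODE M21 transcripts on mm10 from 5′ to 3′, with the codons of the 4 active site residues in capitals. For genes with several sites, the first is shown.
Tmx4: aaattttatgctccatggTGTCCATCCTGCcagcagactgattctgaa
Tmx1: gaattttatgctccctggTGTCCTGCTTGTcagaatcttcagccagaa
Tmx2: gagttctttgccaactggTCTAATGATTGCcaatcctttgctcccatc
P4hb: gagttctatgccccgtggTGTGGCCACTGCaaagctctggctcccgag
Pdia3: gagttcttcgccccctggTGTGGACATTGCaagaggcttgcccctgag
Pdia5: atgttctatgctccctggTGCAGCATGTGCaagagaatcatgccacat
Txndc5: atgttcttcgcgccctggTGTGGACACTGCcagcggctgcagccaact
Txndc12: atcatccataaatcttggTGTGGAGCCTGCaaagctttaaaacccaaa
Erp44: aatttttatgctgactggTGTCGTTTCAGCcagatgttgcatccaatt

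In Tmx4 the capitals encode cysteine-proline-serine-cysteine at residues 60 to 63 of a protein of 335 residues, and in Tmx1 cysteine-proline-alanine-cysteine at residues 56 to 59 of 278. P4hb, Pdia3 and Txndc5 have the cysteine-glycine-histidine-cysteine of the classical isomerases, which Tmx3 also has at residues 56 to 59 of 456. P4hb and Pdia3 have 2 such sites each and Txndc5 has 3, while the 3 sites of Pdia5 differ from each other (cysteine-serine-methionine-cysteine, cysteine-glycine-histidine-cysteine and cysteine-proline-histidine-cysteine). Tmx2 has serine-asparagine-aspartate-cysteine and Erp44 has cysteine-arginine-phenylalanine-serine, so that in both 1 cysteine of the pair is a serine, and Txndc12 has cysteine-glycine-alanine-cysteine. P4hb and Txndc5 end in lysine-aspartate-glutamate-leucine, the retrieval signal of the ER lumen, and Erp44, Txndc12, Pdia3 and Pdia5 end in close variants of it. None of the 4 TMX proteins ends in leucine. Tmx2 ends in lysine-lysine-aspartate-lysine and Tmx3 in lysine-lysine-lysine-aspartate. Tmx1 ends in threonine-aspartate-threonine-serine and Tmx4 in asparagine-lysine-glycine-serine. The printed line of Tmx4, flanking codons included, comes from chr2:134639795-134643846 on the minus strand, a stretch that contains an intron. So do the lines of Tmx1 (chr12:70453316-70456054, plus strand), P4hb (chr11:120571687-120572663, minus strand), Pdia3 (chr2:121414189-121422479, plus strand) and Pdia5 (chr16:35438149-35449418, minus strand). The lines of Txndc5 (chr13:38523448-38528204, minus strand), Txndc12 (chr4:108853188-108856161, plus strand) and Erp44 (chr4:48236958-48241312, minus strand) also cross an intron. That of Tmx2 lies within an exon (chr2:84673520-84673567, minus strand). Whether an intron falls inside the active site codons or beside them was not examined.

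The sgCon tumors had total counts from 14753922 to 19595821 and the sgTaz tumors from 12185383 to 18395558, and the 10 genes had between 220 and 16471 counts per tumor. The RNA of Wwtr1 was at 115 to 192 CPM in sgCon tumors and 86.6 to 139 CPM in sgTaz tumors, with a log2 fold change of -0.59 that did not pass the test (adjusted p = 0.096, edgeR). CPM here is the count of a gene scaled to the TMM-normalized total of its tumor. Among 11 lists of cell type markers, no marker passed the test of edgeR, but the tumors differed in composition. B cell markers summed to 79.6 to 1050 CPM in sgCon and 8.2 to 247 CPM in sgTaz tumors, with all 10 genes lower in sgTaz, and plasma cell markers to 914 to 3070 CPM and 258 to 1020 CPM, with 8 of 9 tested genes lower. T cell markers summed to 91.5 to 720 CPM in sgCon and 59.7 to 188 CPM in sgTaz tumors, with all 8 genes lower in sgTaz. Lymph node stroma markers summed to 95.2 to 819 CPM and 61.1 to 443 CPM, with 4 of 5 tested genes lower. Neutrophil markers summed to 373 to 1190 CPM and 226 to 663 CPM, with all 8 genes lower. Macrophage markers summed to 851 to 1940 CPM in sgCon and 1610 to 2220 CPM in sgTaz tumors, with 9 of 9 genes higher in sgTaz. Epithelial markers, which mark the carcinoma cells, summed to 2160 to 5170 CPM in sgCon and 1650 to 4060 CPM in sgTaz tumors. All 10 of these genes were lower in sgTaz. Fibroblast markers summed to 1940 to 5310 CPM and 1950 to 5250 CPM, with 6 genes higher and 4 lower. Endothelial markers summed to 538 to 737 CPM in sgCon and 536 to 872 CPM in sgTaz tumors, with 7 genes higher and 2 lower. Adipocyte markers summed to 53.8 to 120 CPM and 39.7 to 251 CPM, with all 6 tested genes higher. Skeletal muscle markers summed to 29.7 to 59.1 CPM and 14.1 to 69.9 CPM, with 1 tested gene higher and 2 lower. No marker was at 0 in all tumors, but the B cell markers Fcer2a and Cr2 and the lymph node stroma marker Ccl19 were at 0 in 2 sgTaz tumors each. The lymph node endothelium markers Glycam1 and Chst4 were at 0 in 3 and 4 sgTaz tumors. The muscle marker Acta1 was at 0 in 2 sgTaz tumors and Myh4 in 1 sgCon and 5 sgTaz tumors. Any other marker was at 0 in at most 1 tumor of a group. SgCon tumor 3 had the highest sums of B cell, plasma cell, T cell and lymph node markers of all 10 tumors and the lowest sum of fibroblast markers, and sgTaz tumor 5 had the highest lymphoid sums of its group. Because whole tumors were measured, fewer cells of a type and less RNA per cell cannot be told apart, and the part of composition in the differences below was not tested beyond leaving out tumors.

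The 10 genes covered a wide range of levels when the CPM was divided by the exon length in kilobases. P4hb was at 279 ± 26.6 CPM per kilobase (SD, n = 10 tumors) and Pdia3 at 248 ± 21.9, and the ranges of these abundant isomerases overlapped. Txndc5 at 64.5 ± 3.66 and Tmx1 at 34.8 ± 1.72 CPM per kilobase followed without overlap with their neighbours. Next were Txndc12 at 23.9 ± 1.93 and Erp44 at 22.2 ± 1.38 CPM per kilobase, which overlapped, and then Tmx3 at 15.7 ± 1.14 and Tmx2 at 15.6 ± 1.76, which also overlapped. Tmx4 at 7.73 ± 1.26 and Pdia5 at 7.33 ± 0.989 CPM per kilobase were the lowest and overlapped with each other over the 10 tumors. Their order turned between the groups, with Tmx4 at 6.54 and Pdia5 at 7.01 CPM per kilobase in sgCon tumors, where they overlapped, and Tmx4 at 8.91 and Pdia5 at 7.64 in sgTaz tumors, where they did not. Every tumor was lower in Tmx4 than the lowest tumor in Tmx2. The order is over both groups together and depends on the annotated exon length, which joins the exons of all transcripts of a gene.

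Tmx4 (ENSMUSG00000034723.11, chr2:134594185-134644145 of mm10, minus strand) was at 72.4, 69.8, 72.4, 72.4 and 69.6 CPM in sgCon tumors 1 to 5 and at 96.4, 99.5, 95.1, 98.7 and 96.4 CPM in sgTaz tumors 1 to 5. The groups lay far apart, and within each group the tumors were nearly level. The level was 1.36-fold higher in sgTaz tumors, with a log2 fold change of 0.45 (standard error 0.052, 95% confidence interval 0.33 to 0.56). This is the difference that chose the gene, at an adjusted p of 0.0428 (edgeR's quasi-likelihood test), and it was the only call among all genes. By its size alone it did not stand apart, since 2574 of the genes tested (17.4%) had a larger absolute log2 fold change. The call was lost without sgCon tumor 1 (adjusted p = 0.066), 2 (0.0831) or 5 (0.150) and without sgTaz tumor 1 (0.165), 3 (0.168) or 4 (0.2025). Without sgCon tumor 3 or 4 or sgTaz tumor 2 or 5 it was kept, and in all 10 of these fits the log2 fold change lay between 0.44 and 0.46.

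**Figure D1:**
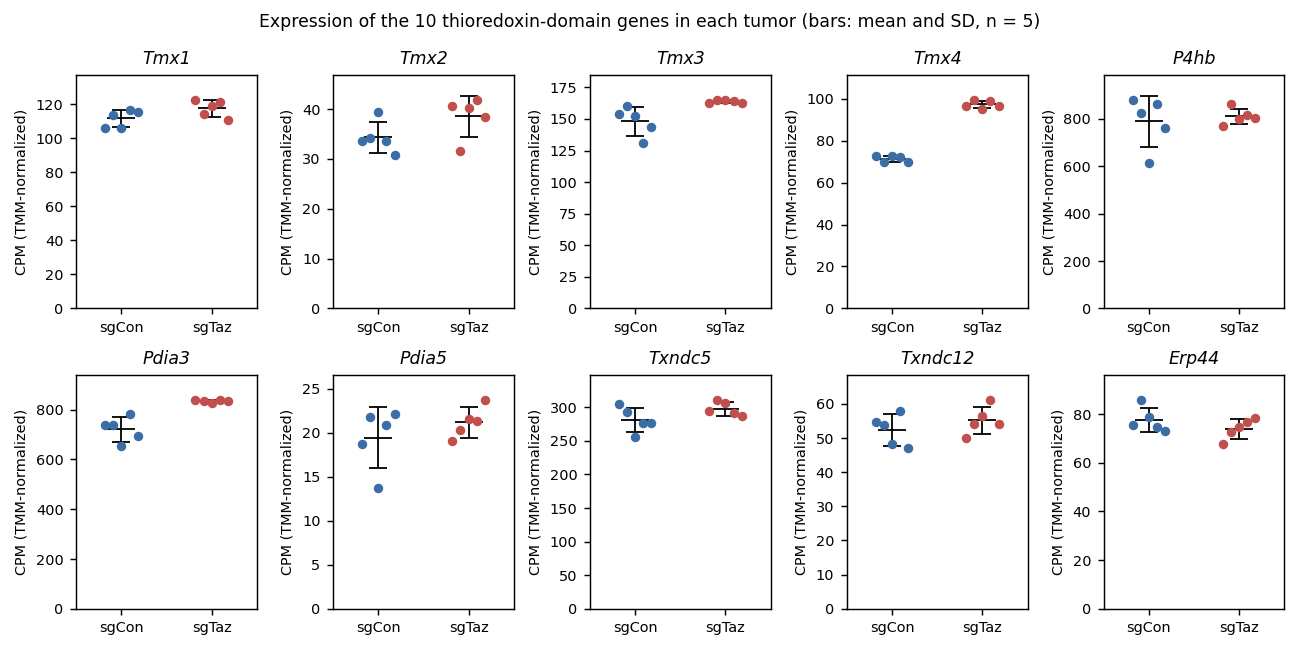
TMM-normalized CPM (vertical axes, from 0) of the 10 genes in each sgCon (blue) and sgTaz (red) tumor, with a panel per gene, a point per tumor and bars for mean and SD (n = 5). In Tmx4 the sgTaz tumors sit between 95.1 and 99.5 CPM and the sgCon tumors between 69.6 and 72.4 CPM, and Tmx3 and Pdia3 are the other panels in which the groups do not overlap.

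The other transmembrane thioredoxins differed less. Tmx3 (ENSMUSG00000024614.7, chr18:90510154-90543267, plus strand), an oxidoreductase of the ER membrane, was at 154.1, 159.9, 152.1, 130.8 and 143.5 CPM in sgCon tumors and at 163.0, 165.0, 165.3, 164.5 and 162.6 CPM in sgTaz tumors. The sgTaz tumors were almost level and all above the sgCon tumors, of which tumor 4 was the lowest. The log2 fold change was 0.15 (standard error 0.064, 95% confidence interval 0.01 to 0.29) and did not pass the test (adjusted p = 0.209, edgeR). Tmx3 shares 491 exon bases with a processed pseudogene on the same strand, so its count is less certain.

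Tmx1 (ENSMUSG00000021072.12, chr12:70453095-70468040, plus strand), which acts on membrane-bound proteins of the ER, was at 106.2, 114.0, 106.2, 116.5 and 115.7 CPM in sgCon and at 122.8, 114.6, 119.0, 121.1 and 111.0 CPM in sgTaz tumors. The groups overlapped, with sgTaz tumors 2 and 5 inside the sgCon range. Its log2 fold change was 0.08 (standard error 0.059, 95% confidence interval -0.05 to 0.20, adjusted p = 0.473, edgeR). Tmx2 (ENSMUSG00000050043.16, chr2:84671316-84679140, minus strand) was at 33.6, 34.2, 39.4, 33.6 and 30.8 CPM in sgCon and at 40.6, 31.6, 40.3, 41.9 and 38.4 CPM in sgTaz tumors. Here sgTaz tumor 2 lay low among the sgCon tumors and sgCon tumor 3 lay among the sgTaz tumors. The log2 fold change of 0.17 (standard error 0.097, 95% confidence interval -0.05 to 0.38) did not pass the test (adjusted p = 0.337, edgeR). Tmx2 shares 252 exon bases with Gm28635 on the same strand and 19 with Med19 on the opposite strand, and whether counting used strand is not given in the sources used here.

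Of the isomerases, Pdia3 was the relative with the highest fold change. Pdia3 (ENSMUSG00000027248.13, chr2:121413775-121438687, plus strand) encodes ERp57, which works with calnexin and calreticulin on glycoproteins. It was at 739.5, 737.6, 652.3, 783.2 and 694.8 CPM in sgCon and at 839.5, 835.8, 827.1, 838.7 and 835.4 CPM in sgTaz tumors. All sgTaz tumors lay above the sgCon tumors and close to each other, while the sgCon tumors were spread out, with tumor 3 the lowest. The log2 fold change was 0.21 (standard error 0.067, 95% confidence interval 0.07 to 0.36). It did not pass the test of edgeR (adjusted p = 0.125) but passed with DESeq2 (adjusted p = 0.0185) and with limma-voom (adjusted p = 0.038), so that the call depends on the tool. Without sgCon tumor 3 the log2 fold change was 0.18 (adjusted p = 0.209, edgeR).

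P4hb (ENSMUSG00000025130.11, chr11:120560298-120573253, minus strand) encodes PDI itself, which is also the beta subunit of the prolyl hydroxylase of collagen. It was at 880.2, 824.4, 613.1, 862.1 and 760.5 CPM in sgCon and at 770.6, 859.8, 797.8, 815.9 and 802.6 CPM in sgTaz tumors. All sgTaz tumors lay inside the sgCon range, whose low end was tumor 3. The log2 fold change was 0.04 (standard error 0.098, 95% confidence interval -0.18 to 0.25, adjusted p = 0.848, edgeR) and turned to -0.035 without sgCon tumor 3. Pdia5 (ENSMUSG00000022844.8, chr16:35397312-35490873, minus strand) was at 18.7, 21.8, 13.7, 20.8 and 22.1 CPM in sgCon and at 19.0, 20.3, 21.6, 21.3 and 23.7 CPM in sgTaz tumors. Apart from sgCon tumor 3, which was low again, the groups lay over each other. Its log2 fold change of 0.12 (standard error 0.13, 95% confidence interval -0.17 to 0.42, adjusted p = 0.616, edgeR) came down to 0.03 without that tumor.

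Txndc5 (ENSMUSG00000038991.17, chr13:38500079-38528824, minus strand), an isomerase that is abundant in secretory cells, was at 304.4, 292.4, 256.2, 276.9 and 277.3 CPM in sgCon and at 294.7, 311.1, 306.3, 290.9 and 286.5 CPM in sgTaz tumors. The groups overlapped, and sgCon tumor 3 was the lowest of all. Its log2 fold change was 0.08 (standard error 0.064, 95% confidence interval -0.06 to 0.22, adjusted p = 0.475, edgeR). Txndc5 shares 224 exon bases with Bmp6 and 311 with Gm31834, both on the opposite strand, so reads of these genes cannot be told apart if strand was not used. SgCon tumor 3 was thus the lowest of the 10 tumors in Pdia3, P4hb, Pdia5 and Txndc5, with plasma cell markers at 3070 CPM and fibroblast markers at 1940 CPM, and whether these go together was not tested.

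Txndc12 (ENSMUSG00000028567.8, chr4:108834601-108862127, plus strand), which encodes the small protein ERp18, was at 54.8, 53.7, 48.2, 57.9 and 47.0 CPM in sgCon and at 50.03, 54.1, 56.4, 61.2 and 54.1 CPM in sgTaz tumors. Only sgTaz tumor 4 lay above the sgCon range. Its log2 fold change was 0.08 (standard error 0.083, 95% confidence interval -0.11 to 0.26, adjusted p = 0.626, edgeR). Erp44 (ENSMUSG00000028343.10, chr4:48193323-48279558, minus strand) was at 75.5, 85.8, 78.7, 74.7 and 73.1 CPM in sgCon and at 67.8, 72.7, 74.6, 76.7 and 78.2 CPM in sgTaz tumors. It was the only gene of the 10 with a lower mean in sgTaz tumors, but the groups overlapped widely. On the log2 scale the fold change was -0.07 (standard error 0.069, 95% confidence interval -0.22 to 0.08, adjusted p = 0.592, edgeR).

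Of the 9 relatives of Tmx4, 8 had a log2 fold change above 0 and 1 below, with a median of 0.08 and a range from -0.07 to 0.21, beside a median of -0.02 over all 14816 genes tested. No relative passed the test of edgeR, and 2 of them, Tmx3 and Pdia3, had an unadjusted p below 0.05. Tmx4 was the single call of edgeR among all genes, which is 0.00675% of those tested. Before adjustment, 9.86% of all genes were higher in sgTaz tumors and 11.9% lower with p below 0.05, and 2 of 9 relatives higher and 0 of 9 lower is read beside these shares as no result about the relatives. With DESeq2, which called 3.28% of genes as higher, and with limma-voom, which called 4.63% as higher, 2 of the 10 genes were called, Tmx4 and Pdia3. In 3 of the 10 genes, Tmx4, Tmx3 and Pdia3, all 5 sgTaz tumors were above all 5 sgCon tumors, as in 2.44% of all genes tested. Since Tmx4 was chosen on this comparison, nothing about the family is read from its own call.

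**Figure D2:**
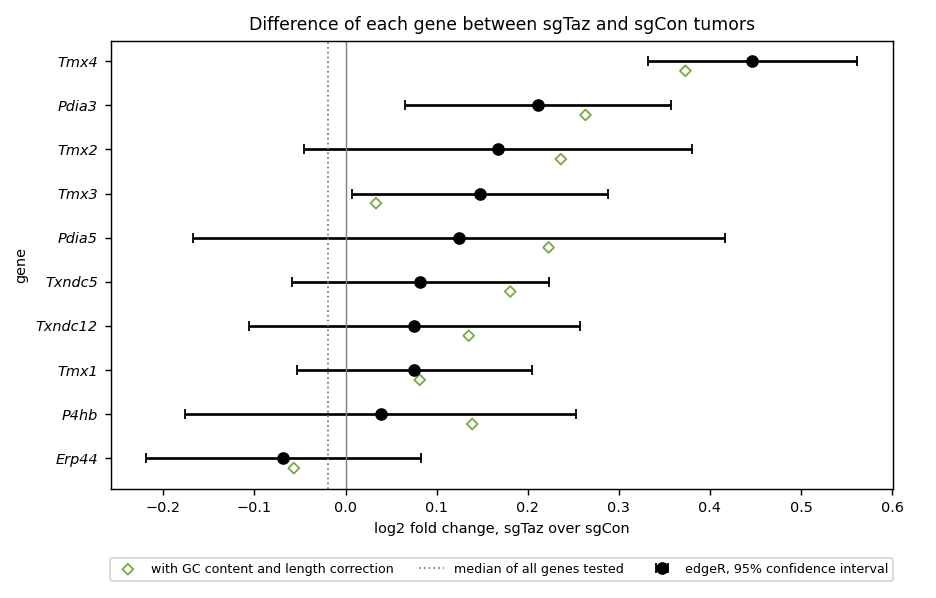
Log2 fold change of each gene, sgTaz over sgCon, from edgeR (black points, bars: 95% confidence interval, 5 tumors per group) and with GC content and length corrected for (open green diamonds, no interval drawn). Tmx4 lies at 0.45, to the right of the relatives, which lie between -0.07 and 0.21 around a median of 0.08. The solid line is at 0 and the dotted line at the median of all genes tested, -0.02.

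Tmx4 was then set against its relatives within each tumor, as its log2 CPM minus the mean log2 CPM of the 9 relatives, a ratio that does not depend on the total count. In sgCon tumors 1 to 5 this was -0.81, -0.90, -0.66, -0.81 and -0.80, and in sgTaz tumors 1 to 5 it was -0.42, -0.39, -0.50, -0.47 and -0.47. The groups did not overlap, and the sgCon tumor nearest to the sgTaz tumors was tumor 3. The means were -0.80 ± 0.087 and -0.45 ± 0.045 (SD, n = 5), a difference of 0.35, so that Tmx4 was 1.27-fold higher relative to this family in sgTaz tumors. Against single relatives the difference was between 0.23 for Pdia3 and 0.51 for Erp44. The groups did not overlap for 7 of the 9 relatives, Pdia5 and P4hb being the exceptions. The share of all genes whose ratio to Tmx4 would not overlap was not computed, so this count is read as no result about the relatives. These ratios contain the difference that chose Tmx4 and are given without a test.

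**Figure D3:**
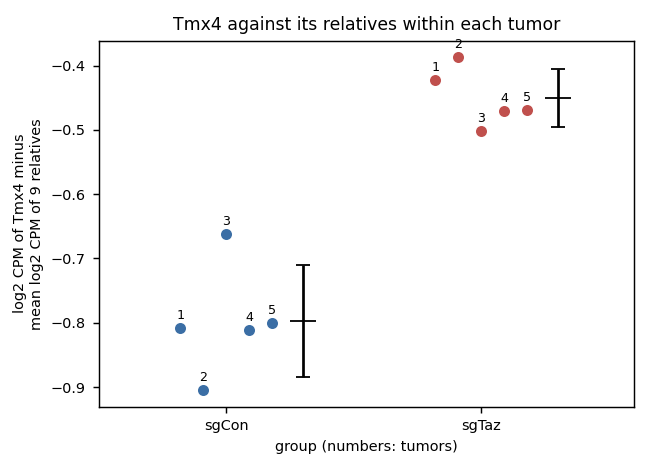
Log2 CPM of Tmx4 minus the mean log2 CPM of its 9 relatives (vertical axis) in each sgCon (blue) and sgTaz (red) tumor, with tumor numbers, and mean and SD beside each group (n = 5). The sgCon tumors lie between -0.90 and -0.66 and the sgTaz tumors between -0.50 and -0.39.

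Over both groups together, the tumors of a group varied less in Tmx4 than in any other of the 10 genes. Its coefficient of variation within groups was 1.96%, where Poisson counting of its mean count of 1346 alone gives 2.73%. The chi-square of its counts within groups per degree of freedom, which is 1 for pure counting error, was 0.524, and 0.256% of all genes tested had a lower value. It was the only one of the 10 genes below 1, as were 1.84% of all genes, whose median was 8.38. The value was 0.742 with RLE normalization, 0.244 with total counts, and between 0.431 and 0.587 with each tumor left out. A small spread lowers the p by which Tmx4 was chosen, so its low value is part of the choice. The genes with the next lowest p, Xdh and Flrt3, had values of 35.0 and 16.1 and larger log2 fold changes (0.65 and 1.00).

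Among the relatives the value was 3.37 for Tmx1, 4.68 for Erp44, 5.36 for Txndc12, 5.49 for Tmx2, 6.05 for Pdia5 and 7.93 for Tmx3. It was 12.4 for Txndc5, 28.8 for Pdia3 and 131 for P4hb, at mean counts of 4675, 12520 and 12900. In Tmx3 and Pdia3 the spread lay in the sgCon tumors. The coefficient of variation of Tmx3 was 7.64% in sgCon and 0.732% in sgTaz tumors, beside 1.99% and 2.0% from counting, and that of Pdia3 was 6.89% and 0.589%, beside 0.9% and 0.888%. P4hb likewise had 13.7% in sgCon and 4.03% in sgTaz tumors. Whether the spread of these genes differed between groups was not tested.

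**Figure D4:**
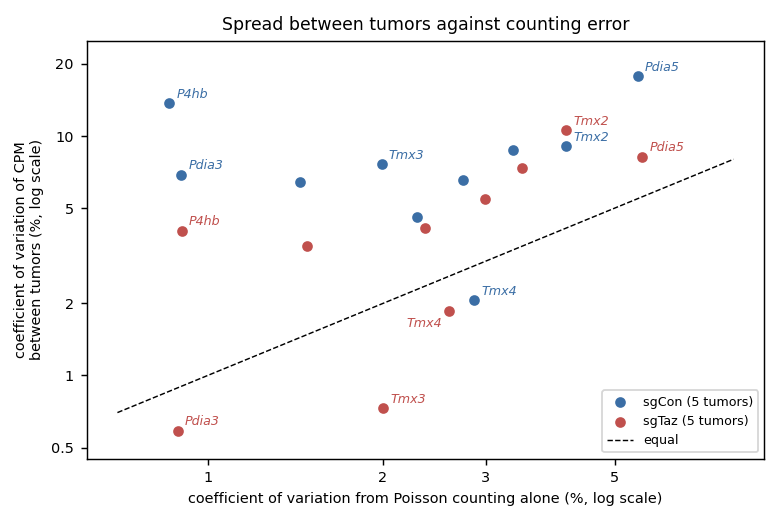
Coefficient of variation of CPM between the 5 tumors of a group (vertical axis, %, log scale) against that of Poisson counting alone (horizontal axis, %, log scale), with a point per gene for sgCon (blue) and for sgTaz (red) tumors and selected genes named. On the dashed line both are equal. Tmx4 lies below the line in both groups (2.06% and 1.86%), and Tmx3 and Pdia3 lie below it in sgTaz tumors only.

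Fold changes of all genes depended on gene length and GC content, and both touch Tmx4 and Tmx3. In the decile of genes with the shortest exons the median log2 fold change was -0.17 and in that with the longest 0.08. Tmx4, with 10907 exon bases, and Tmx3, with 9933, belong to the longest decile, while the other 8 genes have between 2253 and 4492 exon bases. By GC content the median went from 0.06 in the lowest decile to -0.11 in the highest. Tmx4 has 42.3% GC and Tmx3 35.3%. Low GC is not particular to them, since Tmx1 has 40.9% and Erp44 41.6%, while the remaining genes have 46.9% to 53.8%. After correction for length and GC content, the log2 fold change of Tmx4 was 0.37 (adjusted p = 0.104, edgeR) and that of Tmx3 was 0.03 (adjusted p = 0.846, edgeR). That of Pdia3 was 0.26 (adjusted p = 0.135, edgeR). The other relatives were at 0.24 for Tmx2, 0.22 for Pdia5, 0.18 for Txndc5, 0.14 for P4hb and Txndc12, 0.08 for Tmx1 and -0.06 for Erp44, none of them called. The median of the 9 relatives was 0.14 in place of 0.08 and that of all genes 0.04 in place of -0.02, so that Tmx4 lay closer to its relatives than without the correction. No exon of Tmx4 overlaps another annotated gene.

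To place the 10 genes in their pathway, 6 lists of genes of related function were examined. Of 90 genes tested, none passed edgeR, 12 higher and 12 lower genes had an unadjusted p below 0.05, beside 9.86% higher and 11.9% lower of all genes. DESeq2, which called 6.75% of all genes in either direction, and limma-voom, which called 10.4%, called 9 of the pathway genes each. These counts are read as no result about the lists. Among 7 other isomerases, 4 were higher and 3 lower, with a median log2 fold change of 0.06 beside -0.02 over all genes, and 2 were higher at an unadjusted p below 0.05. The reductase Dnajc10 was at 193.4 ± 12.1 CPM in sgCon and 230.8 ± 23.5 CPM in sgTaz tumors (SD, n = 5, adjusted p = 0.127, edgeR). Pdia4 was at 205.9 ± 22.1 and 233.5 ± 11.96 CPM (adjusted p = 0.222, edgeR) and the isomerase relative Erp29 at 174.2 ± 32.9 and 148.8 ± 20.3 CPM (adjusted p = 0.346, edgeR). The groups overlapped in each of these genes, and the log2 fold change of Erp29 went from -0.23 to -0.13 without sgCon tumor 4.

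In the calnexin cycle, in which Pdia3 works, 11 of 15 genes were higher and 4 lower, with a median of 0.04. At an unadjusted p below 0.05, 5 of the 15 were higher and 0 lower, beside 9.86% and 11.9% of all genes, and the list was not tested. Uggt1, the folding sensor that returns glycoproteins to calnexin, was at 276.3 ± 35.9 CPM in sgCon and 344.5 ± 20.4 CPM in sgTaz tumors (adjusted p = 0.107, edgeR, and 0.0190 with DESeq2). The cargo receptor Lman1 was at 137.7 ± 15.4 and 165.8 ± 7.51 CPM (adjusted p = 0.114, edgeR, and 0.0237 with DESeq2). Edem3, which marks misfolded glycoproteins for degradation, was at 77.7 ± 11.9 and 98.3 ± 13.0 CPM (adjusted p = 0.155, edgeR).

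Of 21 oxidases and other redox enzymes of the ER, 12 were higher and 9 lower, with a median of 0.01 and 3 in each direction at an unadjusted p below 0.05. Vkorc1l1, a vitamin K epoxide reductase of the VKOR family, which takes electrons from isomerases and so oxidizes them, was at 47.8 ± 4.91 CPM in sgCon and 58.4 ± 2.40 CPM in sgTaz tumors without overlap (adjusted p = 0.105, edgeR, and 0.0258 with DESeq2). The sulfhydryl oxidase Qsox2 was at 25.1 ± 2.31 and 31.1 ± 4.45 CPM (adjusted p = 0.160, edgeR), and Sumf2 was at 5.56 ± 0.895 and 7.68 ± 1.21 CPM (adjusted p = 0.154, edgeR).

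The unfolded protein response, which raises many isomerases when folding in the ER fails, had 10 genes higher and 11 lower of 21, with a median of -0.06. At an unadjusted p below 0.05, 1 of the 21 was higher and 6 lower, beside 9.86% and 11.9% of all genes, and this list was not tested either. Creld2, a gene induced by ER stress, was at 62.5 ± 6.56 CPM in sgCon and 42.7 ± 3.33 CPM in sgTaz tumors without overlap (adjusted p = 0.0824, edgeR, and 0.000148 with DESeq2). Its log2 fold change of -0.55 was -0.33 with GC content and length corrected for (adjusted p = 0.117, edgeR). Ddit3, the transcription factor CHOP, was at 18.5 ± 2.27 and 13.3 ± 1.26 CPM, also without overlap (adjusted p = 0.096, edgeR, and 0.0131 with DESeq2). Derl3, a component of ER-associated degradation, was at 7.10 ± 3.23 and 1.95 ± 1.03 CPM (adjusted p = 0.096, edgeR, and 0.00456 with DESeq2). Derl3 is also in the list of plasma cell markers, whose sum was 914 to 3070 CPM in sgCon and 258 to 1020 CPM in sgTaz tumors, and the part of plasma cells in its level was not tested.

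In the thioredoxin system of cytosol and mitochondria, 6 of 16 genes were higher and 10 lower, with a median of -0.08, and 0 higher and 2 lower at an unadjusted p below 0.05. The spliceosomal thioredoxin-like Txnl4b was at 12.01 ± 1.13 CPM in sgCon and 9.42 ± 1.47 CPM in sgTaz tumors (adjusted p = 0.170, edgeR). Glrx5, a mitochondrial glutaredoxin, was at 65.7 ± 14.8 and 49.3 ± 11.3 CPM (adjusted p = 0.218, edgeR), and the reductase Txnrd3 at 5.33 ± 1.36 and 6.92 ± 0.458 CPM (adjusted p = 0.265, edgeR). TMX4 has also been tied to the LINC complex, which links the nuclear envelope to the cytoskeleton, and of 10 genes of this complex 6 were higher and 4 lower, with a median of 0.06 and 1 in each direction at an unadjusted p below 0.05. The inner nuclear membrane proteins Sun2 and Sun1 were at 96.2 ± 29.9 and 68.8 ± 8.89 CPM (adjusted p = 0.167, edgeR) and at 111.0 ± 8.85 and 125.1 ± 10.02 CPM (adjusted p = 0.222, edgeR). Emd, the gene of emerin, was at 54.6 ± 4.998 and 48.3 ± 3.04 CPM without overlap (adjusted p = 0.232, edgeR). Without sgCon tumor 3, which was at 145.5 CPM in Sun2, the log2 fold change of Sun2 went from -0.48 to -0.28 and that of Emd from -0.18 to -0.11, and with GC content and length corrected for that of Emd was -0.07.

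Both tested genes within 500 kb of Tmx4 were expressed at a low level. Hao1 (chr2:134497361-134554368), a hydroxyacid oxidase, was at 4.74, 5.16, 5.12, 4.00 and 6.64 CPM in sgCon and at 5.73, 12.3, 4.23, 7.45 and 7.71 CPM in sgTaz tumors (log2 fold change 0.55, adjusted p = 0.257, edgeR). The groups overlapped, and without sgTaz tumor 2, the highest, the log2 fold change was 0.29. Plcb1 (chr2:134786067-135475258), a phospholipase C of signaling, was at 3.72, 5.91, 4.68, 4.55 and 4.59 CPM in sgCon and at 5.67, 5.43, 10.3, 7.85 and 8.15 CPM in sgTaz tumors (log2 fold change 0.67, adjusted p = 0.119, edgeR, and 0.0387 with DESeq2). SgTaz tumors 1 and 2 lay within the sgCon range, and the other sgTaz tumors lay above it.

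Across the 10 tumors, the genes whose log2 CPM followed that of Tmx4 most closely among 10237 genes were Slc25a36 (Pearson r = 0.957), Sumo2 (0.942), Dixdc1 (0.937), Zfp599 (0.934) and Zfp518b (0.933). These correlations are a description of 10 tumors, contain the difference between the groups and share its libraries. Slc25a36, a mitochondrial nucleotide carrier, was at 98.2 ± 4.90 CPM in sgCon and 126.6 ± 4.53 CPM in sgTaz tumors, and Dixdc1 at 11.04 ± 0.448 and 14.4 ± 0.742 CPM. Sumo2, which has processed copies elsewhere in the genome and is less certain for that reason, was at 110.3 ± 1.52 and 118.9 ± 2.07 CPM. The zinc finger genes Zfp599 and Zfp518b were at 9.78 ± 0.553 and 14.7 ± 1.54 CPM and at 11.2 ± 1.55 and 18.3 ± 1.34 CPM. None of these 5 genes passed the test of edgeR (adjusted p = 0.0824 to 0.230), while DESeq2 and limma-voom called all but Sumo2 (DESeq2 adjusted p = 9.21e-06 for Slc25a36, 6.68e-05 for Zfp518b, 0.000332 for Zfp599, 0.00727 for Dixdc1 and 0.103 for Sumo2). Of the relatives, Pdia3 followed Tmx4 most closely (r = 0.859, rank 64 of the 10237 genes), then Tmx3 (r = 0.707, rank 589), while Erp44 had an r of -0.41.

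Promoters of 9 of the 10 genes, Tmx3 being the exception, were read from RefSeq on GRCm38.p6, from 250 bases before to 50 bases after each start. The motif GGAATG of the TEAD factors, the DNA-binding partners of TAZ, was searched on both strands and is held by 16.6% of 27025 genes. P4hb and Txndc12 hold it and Tmx4 does not. The motif TGACGTGG of the unfolded protein response is held by 0.714% of genes and, of the 9, by Txndc5. Txndc5 has 3 promoter windows, and the motif lies only in that at chr13:38527865-38528164 (minus strand), 138 bases before the start of this window. That start is inside the annotated gene, which reaches to 38528824. The ER stress element, CCAAT followed after 9 bases by CCACG, is held by 0.137% of genes and by none of the 9. These counts describe letters in short windows only.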

How the data were processed

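RNA of 10 whole tumors was sequenced on an Illumina instrument. The authors aligned reads against mm10 by STAR with a GENCODE annotation and counted them per gene with featureCounts of Subread, and the deposited values are these raw counts, without normalization. The submitters' processing notes also name CASAVA. Tool versions and the strand setting are not given in the sources used here. A further 5 columns of the table match no sample and were not used. Tumors were grouped by their labels, which do not say whether each came from a separate mouse. The p-values thus set the difference between groups against the spread between these tumors. In edgeR this spread is moderated across genes, so that of Tmx4 is not taken from its own counts alone. Standard errors from edgeR are the absolute log2 fold change divided by the square root of F, the statistic of its test. The methods give a single target sequence for the guide RNA against Wwtr1, so differences by guide and by cell line cannot be told apart.

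Identifiers were matched to GENCODE M21 (17860 of 17864). Counts were tested in R 4.3.3 with edgeR 4.0.16 (TMM, filterByExpr, glmQLFit, glmQLFTest, Benjamini-Hochberg adjusted p below 0.05 over the 14816 genes that passed the filter, while 3048 did not). DESeq2 1.42.0 and limma 3.58.1 (voom with sample quality weights) were alternatives. Log2 CPM used a prior count of 2. The correction for GC content and length was an offset per tumor from natural splines with 4 degrees of freedom. Other steps used Python 3.11.15. A count of 0 allows up to 3 counts, between 1.53e-05% and 2.46e-05% of a total, for counting error only. No 2 tumors of a group agreed within counting error.

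The members and gene lists were chosen with earlier results of these data known. Named are the 10 genes, the 3 genes of each pathway list with the lowest p and at least 1 CPM, tested genes within 500 kb of Tmx4, the 5 genes most like Tmx4 (at least 10 CPM), and, of the most abundant marker of each list, only Glycam1. Fcer2a, Cr2, Ccl19, Chst4, Acta1, Myh4, Xdh and Flrt3 were named after their values were seen. In simulated data (14815 genes, 50 changed at each size), edgeR recovered 24% of genes changed by a log2 fold of 0.5, 76% at 1, 88% at 2 and 98% at 3, with 3 false among 146 calls. Each gene was simulated independently, and the run given here had no differences in composition between tumors and no trend with gene length. The measured tumors have both, so these shares need not hold for them. Another run with a length trend was made, and its shares are not given here. Protein identities were not computed here.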

Additional observations from a re-analysis of the deposited data

How the results depend on the processing

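The log2 fold change of Tmx4 lay between 0.37 and 0.47 over 21 alternative fits, of which 11 called it (adjusted p from 7.3e-13 to 0.2025, edgeR, DESeq2 and limma-voom). The number of genes called higher and lower was 527 and 558 with DESeq2, 686 and 860 with limma-voom, 4 and 1 with at least 10 counts in every tumor, and 51 and 136 without sgCon tumor 3 and sgTaz tumor 5, an alternative chosen after seeing the data. It was 0 and 0 with edgeR without a filter (where 3610 genes had an unadjusted p below 0.05), with the replicate number as a block (2462), with GC content and length corrected for (3029) and with the block and this correction (2612). With each tumor left out in turn, 0 to 42 genes were called higher and 0 to 130 lower, with the highest counts without sgTaz tumor 5 (42 and 130) and 2 (40 and 35). Of the 10 genes, 2 were called with DESeq2 and limma-voom, 0 without a filter, with the block, with the correction and with both, and 0 to 1 with each tumor left out. Of the pathway genes, 9 were called with DESeq2, 9 with limma-voom, 0 to 1 with each tumor left out and 1 without sgCon tumor 3 and sgTaz tumor 5. The median log2 fold change of the relatives was 0.14 with the correction and 0.15 with the block and the correction together. P4hb turned to -0.035 without sgCon tumor 3, in a range from -0.035 to 0.082 over the tumors left out, and to -0.021 without sgCon tumor 3 and sgTaz tumor 5, and Pdia5, at 0.027 to 0.17 with single tumors left out, turned to -0.0056 in the latter fit. In that fit Tmx4 was at 0.47 (adjusted p = 0.0237, edgeR) and Pdia3 at 0.19 (adjusted p = 0.222, edgeR). The bias-adjusted deviance of edgeR and normalization by RLE or upper quartile left the calls at 1 higher and 0 lower. The cause of these changes was not tested. No pairing of tumors by replicate number was seen: the correlations of same-numbered tumors were between -0.24 and 0.22, and 0 of 5 were highest with their own number. A pairing with a small effect would be missed in this way, since the tumors also differed in composition. With the block alone, Tmx4 had a log2 fold change of 0.45 (adjusted p = 0.135, edgeR). At 220 to 435 counts per tumor, counting alone gives Pdia5 a coefficient of variation of 5.53%, which limits what can be seen in it.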
